A study of Mus musculus with 12 samples.

Results

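The Dlg, Shank and Homer genes encode the scaffold proteins of the postsynaptic density, the protein layer under the receptors of excitatory synapses. The members were the rows of the deposited count table with the symbols Dlg1 to Dlg4, Shank1 to Shank3 and Homer1 to Homer3, 10 of 24015 rows, and all 10 passed the filter on low counts. RNA came from sorted nuclei of mouse hippocampus. The titles of the 12 libraries name 4 groups (Basal, Early, Late, Reactivated) with 3 replicates each. All mice were of the strain ArcCreERT2 x R26R-STOP-floxed eYFP with genotype +/+. In them a tamoxifen-dependent Cre recombinase is driven by the promoter of the activity-induced gene Arc, and Cre switches on a yellow fluorescent protein, so marking depends on both Arc activity and the drug. Age and sex are not stated in the labels. By the protocol, mice spent 24 h in the dark, received 4-hydroxytamoxifen and met contextual fear conditioning 1 h later. One set of brains was collected 1.5 to 2 h after that conditioning; the others came on day 5, after 48 h of darkness and a return to the normal light cycle. Part of the day 5 cohort met the fear-inducing tone and context again. The treatment label is the same for all 12 libraries (foot shock and collection on day 0, no recall). The groups therefore rest on the titles, and no label says which antibody gate (NeuN, Arc, GFP) or time belongs to which title. Each condition was 10000 fixed nuclei sorted from pooled hippocampi of 10 to 12 mice, and the 3 replicates are described as biological.

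At an excitatory synapse the Dlg proteins, a family of membrane-associated guanylate kinases, hold NMDA receptors and, through auxiliary subunits, AMPA receptors at the membrane. Proteins of the Dlgap family link them to the Shank proteins, which form a deeper layer and bind Homer. Homer proteins tie Shank to the metabotropic glutamate receptors and to calcium release channels, and the Homer1 gene also makes a short, activity-induced form that lacks the coiled coil and competes with the long forms. The values here are gene counts from nuclear RNA, which can hold unspliced transcripts, so short and long Homer1 RNA cannot be told apart, and neither can protein or synaptic localisation be read from them. In bulk nuclei, fewer cells of a type and less RNA per nucleus cannot be told apart either.

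In the main fit Homer1 was high in Early and Reactivated, while Homer2 was highest in Late. After a correction for GC content, given below, Homer1 was also higher in Late than in Basal. The sequences directly upstream of annotated Homer starts are shown side by side. They are from RefSeq on build GRCm38.p6, on the strand of the gene, 5′ to 3′. The table held upstream windows for 8 of the 10 members. Capitals mark the letters TGACG (or CGTCA, the same on the other strand), the core of the cAMP response element that CREB-family factors bind. The Homer1 window is chr13:93303507-93303756 on the plus strand, the Homer2 window chr7:81706926-81707175 on the minus strand and the Homer3 window chr8:70282749-70282998 on the plus strand.
Homer1: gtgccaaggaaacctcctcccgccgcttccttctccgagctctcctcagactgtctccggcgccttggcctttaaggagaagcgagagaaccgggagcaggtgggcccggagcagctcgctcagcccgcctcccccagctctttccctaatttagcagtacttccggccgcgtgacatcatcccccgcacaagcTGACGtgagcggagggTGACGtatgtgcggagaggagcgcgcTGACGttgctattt
Homer2: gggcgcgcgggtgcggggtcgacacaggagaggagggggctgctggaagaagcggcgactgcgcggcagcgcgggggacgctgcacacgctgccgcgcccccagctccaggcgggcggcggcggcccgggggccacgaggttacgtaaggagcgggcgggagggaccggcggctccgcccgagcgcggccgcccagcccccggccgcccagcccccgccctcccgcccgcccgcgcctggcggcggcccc
Homer3: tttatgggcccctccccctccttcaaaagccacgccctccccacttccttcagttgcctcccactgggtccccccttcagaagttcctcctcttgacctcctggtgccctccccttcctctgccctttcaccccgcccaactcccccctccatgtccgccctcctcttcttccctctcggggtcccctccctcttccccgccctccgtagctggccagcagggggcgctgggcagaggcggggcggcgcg
The Homer1 window held 3 copies of TGACG, and the copy nearest the start begins 14 bases before it. Of all 32851 upstream windows of this length, 17.8% held at least 1 copy on either strand and 0.688% held 3 or more. The Homer2 and Homer3 windows held none, and neither did a further annotated window of Homer1 and of Homer2. The full element TGACGTCA, which contains TGACG, was in none of the 3 windows and in 1.55% of all windows. TGANTCA, the AP-1 motif (6.75% of all windows), GCGTGGGCG, the EGR motif (0.536%), the SRF CArG box (1.47%) and the MEF2 motif (2.92%) were searched on both strands and were not found in these 3 windows either. Among the windows of the other members, 1 Dlg3 window and 1 Dlg4 window held 1 TGACG copy each, 1 Dlg1 window held 1 MEF2 match and the Shank3 window held 1 EGR match. These are matches of letters and show no binding.

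Total counts ran from 4838166 to 11120255 per library. NeuN is the product of Rbfox3, which was present in every group (mean normalized counts of 1751 to 2267), and Arc averaged 145 in Basal and 435 in Early, then 593 in Late and 660 in Reactivated. A normalized count is the count divided by the effective library size after TMM scaling, relative to the geometric mean over libraries. The ribosomal RNA precursor Rn45s made up a mean of 7.36% ± 4.19 of a Basal library and 8.51% ± 3.83 of an Early library, against 33.4% ± 4.76 in Late and 22.4% ± 4.69 in Reactivated (each SD over n = 3), and within their groups Basal 3 (12.2%) and Early 3 (12.9%) were highest. No label names a batch. "Rose" and "fell" are used for genes with an adjusted p under 0.05 in edgeR's quasi-likelihood test (Benjamini-Hochberg over the 15668 genes tested, two-sided), and log2 fold changes carry their SE, with 3 libraries per group.

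**Figure D1:**
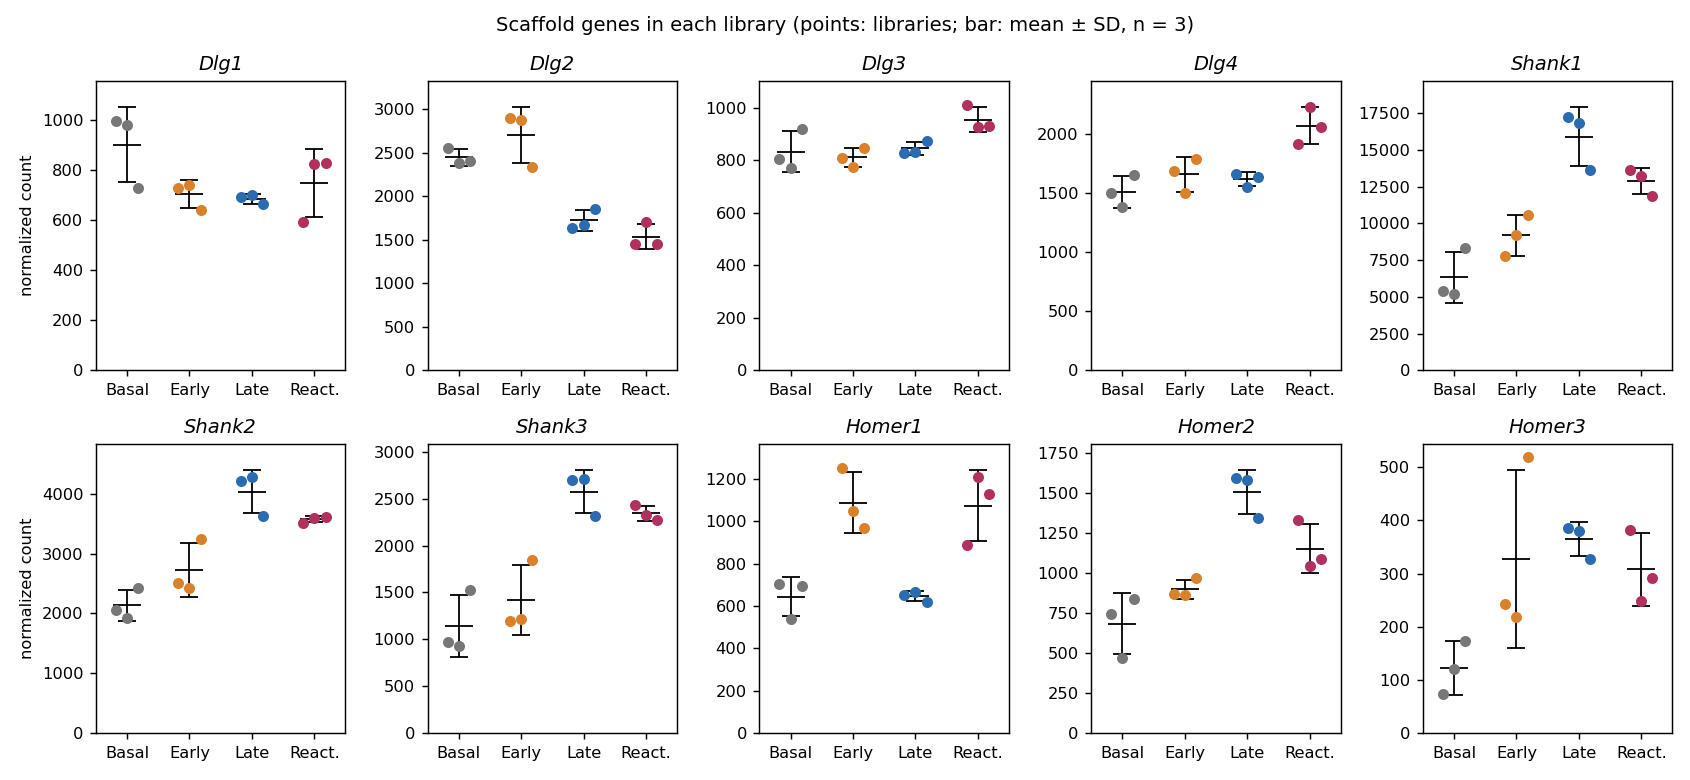
Normalized counts of the 10 scaffold genes in each of the 12 libraries (points) with group mean and SD (bars), 1 panel per gene, each with its own axis from 0. Every Late and Reactivated library lies above every Basal and Early library for Shank1, Shank2 and Shank3 and below them for Dlg2, whereas Homer1 is high in Early and Reactivated. The share of all genes that separate in these ways was not computed.

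The 10 genes differed in how their nuclear RNA was ordered over the groups. In the test of any difference among the 4 groups 8 of 10 passed, against 58.6% of all genes tested. The exceptions were Dlg1 (adjusted p = 0.135) and Dlg3 (adjusted p = 0.293). In Early against Basal 2 of 10 members rose (background 3.36% of genes rose and 2.66% fell), both Homer genes. In Late against Basal 5 rose and 1 fell (25.4% and 23.6% of all genes). In Reactivated against Basal 7 rose and 1 fell (20.6% and 18.8%). In Late against Early 4 rose and 2 fell (22% and 20.4%), in Reactivated against Early 1 rose and 1 fell (13.5% and 12.7%), and in Reactivated against Late, which by its title bears on the second exposure, 1 rose (10.3% of all genes rose and 12.3% fell). Comparisons that share a group share its libraries and are not independent. For every statement below that libraries of groups did or did not overlap, the share of all genes with the same pattern was not computed. Scaling by library total alone gave a median of all genes of -0.868 in Late against Basal, where it was -0.03 with TMM, and the members past the threshold were then 2 risen and 5 fallen in Late against Basal, 3 and 2 in Reactivated against Basal, 0 and 5 in Late against Early, 0 and 1 in Reactivated against Early, and 3 and 0 in Reactivated against Late. Of all genes, 1401 rose and 9062 fell in Late against Basal with library totals, against 3981 and 3705 with TMM. Library totals gave 1240 and 5833 of all genes in Reactivated against Basal and 1208 and 8601 in Late against Early. They gave 719 and 4284 in Reactivated against Early and 3881 and 1091 in Reactivated against Late. Upper quartile scaling gave 3016 and 5114 for all genes in Late against Basal, and 5 and 2 for the members. Relative to the median of all genes under library totals, the values of the members were at most 0.065 from those given below.

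The median log2 fold change of the 10 members was 0.34 in Early against Basal, where the median of all genes was 0.01. It was 0.51 in Late against Basal (all genes -0.03) and 0.74 in Reactivated against Basal (all genes 0.02). The other medians were 0.11 in Late against Early, 0.28 in Reactivated against Early and -0.15 in Reactivated against Late, with -0.03, 0.03 and 0.03 for all genes. Leaving out single libraries moved the counts of members passing by more than 1.5 times in 3 comparisons. They ran from 6 to 7 in Late against Basal and from 7 to 8 in Reactivated against Basal, and were 6 throughout in Late against Early. In Early against Basal the count was 0 without Basal 2 and 1 without Basal 1, Early 1 or Early 3. Of all genes, 527 rose and 417 fell with all libraries, and 255 and 234 without Basal 2. They were 318 and 278 without Basal 1, 321 and 228 without Early 1, and 419 and 337 without Early 3. In Reactivated against Early the count of members was 5 without Early 3, 4 without Basal 3 and 1 without Early 1 or Early 2. Of all genes, 2121 rose and 1988 fell with all libraries, 2395 and 2203 without Early 3, and 2406 and 2153 without Basal 3. They were 860 and 933 without Early 1 and 783 and 915 without Early 2. In Reactivated against Late the count of members was 2 without Basal 3 or Reactivated 1. Of all genes, 1753 rose and 2074 fell without Basal 3 and 1719 and 2066 without Reactivated 1, against 1615 and 1926.

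**Figure D2:**
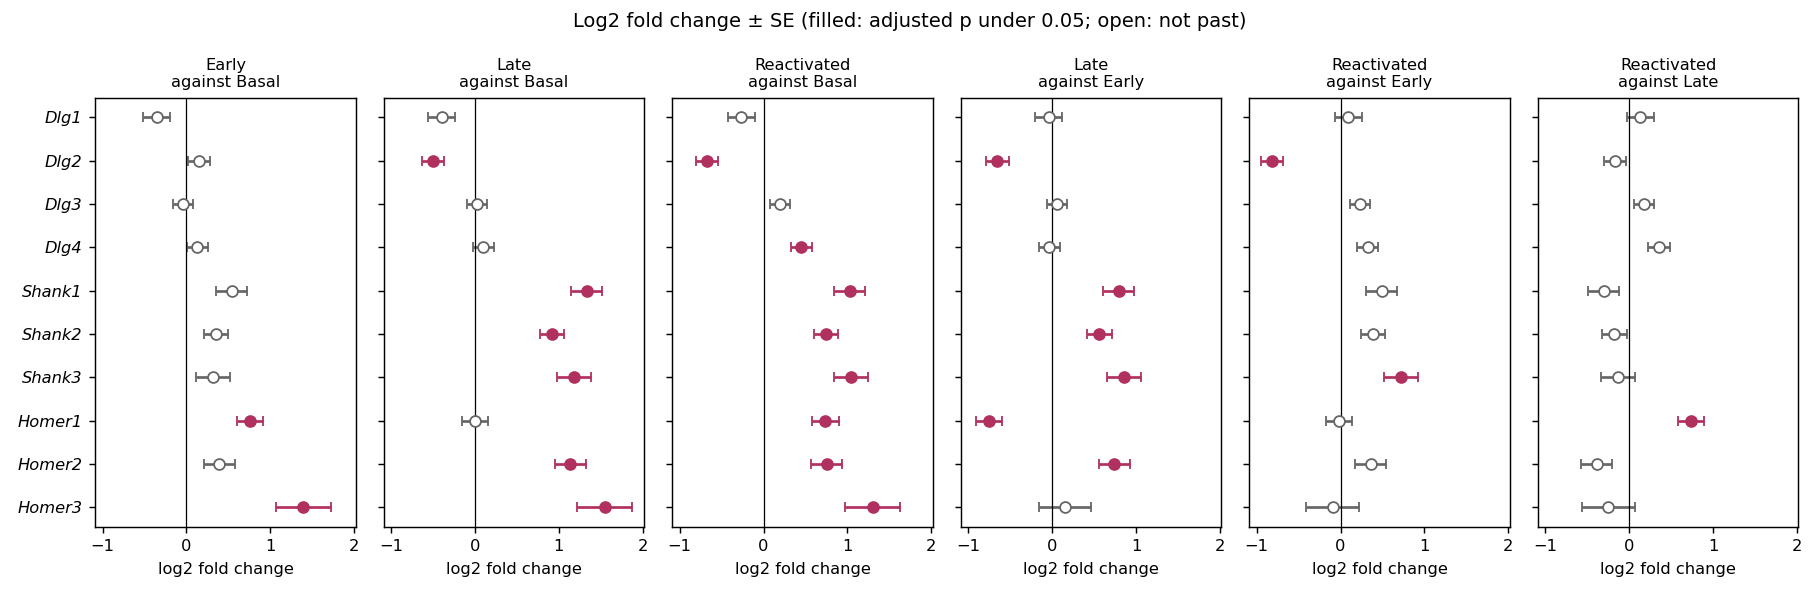
Log2 fold change (points) and SE (lines) of each scaffold gene in the 6 comparisons, with filled points for genes past the adjusted p threshold of 0.05. Shank1, Shank2, Shank3, Homer2 and Homer3 lie above 0 in all comparisons with Basal, Dlg2 falls in the comparisons of Late and Reactivated with Basal and Early, and Homer1 is at 0.00 in Late against Basal.

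The Dlg family changed least as a sum and shifted in composition. Dlg2, a membrane-associated guanylate kinase that binds NMDA receptors and potassium channels, had normalized counts of 2555, 2376 and 2404 in the Basal libraries, 2901, 2871 and 2335 in the Early, 1637, 1672 and 1856 in the Late and 1451, 1706 and 1450.3 in the Reactivated libraries. Every Late and Reactivated library was below every Basal and Early library, while Basal and Early overlapped. Dlg2 fell in Late against Basal by 0.51 ± 0.13 on the log2 scale (adjusted p = 0.00543) and in Reactivated against Basal by 0.67 ± 0.13 (adjusted p = 0.00148). Against Early it fell by 0.65 ± 0.13 in Late (adjusted p = 0.0013) and by 0.81 ± 0.13 in Reactivated (adjusted p = 0.00138). Between Early and Basal the difference was 0.14 ± 0.13 (adjusted p = 0.701) and between Reactivated and Late -0.16 ± 0.13 (adjusted p = 0.403). The directions of the Dlg2 falls were the same under each scaling tried, although with values as deposited only that in Late against Early passed.

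Dlg4, the most studied scaffold of the mature postsynaptic density and an anchor of AMPA and NMDA receptor complexes, had 1498, 1382 and 1651 in the Basal libraries, 1685, 1496 and 1782 in the Early, 1661, 1549.6 and 1635 in the Late and 1915, 2226 and 2059 in the Reactivated libraries. All 3 Reactivated libraries were above the other 9, which overlapped among themselves. Dlg4 rose in Reactivated against Basal by 1.37-fold (log2 0.45 ± 0.13, adjusted p = 0.0117). The call did not pass without Basal 2 (0.39, adjusted p = 0.0588), and with scaling by library total alone the value was -0.027, or 0.44 above the median of all genes. Against Late the difference was 0.36 ± 0.13 (adjusted p = 0.0559), which passed without Basal 3 (0.36, adjusted p = 0.0417) or Reactivated 1 (0.41, adjusted p = 0.0434). Against Early it was 0.32 ± 0.13 (adjusted p = 0.0725) and passed without Early 3 (0.37, adjusted p = 0.0499). Late and Basal differed by 0.10 ± 0.13 (adjusted p = 0.544).

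Dlg1, which takes part in the delivery of AMPA receptors, had 996, 979 and 728 in the Basal libraries, 728, 742 and 641 in the Early, 692, 700.1 and 663 in the Late and 592, 826 and 829 in the Reactivated libraries. Basal 1 and Basal 2 were the highest libraries of all, and Basal 3 lay within the range of the others. No comparison passed. The value nearest the threshold was Late against Basal, -0.39 ± 0.16 (adjusted p = 0.0539), which passed without Basal 3 (-0.53, adjusted p = 0.0117) or Reactivated 1 (-0.39, adjusted p = 0.0271). Dlg3, a carrier of NMDA receptors that is prominent in young neurons, had 806, 770.0 and 919.7 in the Basal libraries, 809, 775 and 848 in the Early, 829, 832 and 875 in the Late and 1009, 927 and 929 in the Reactivated libraries. The Reactivated libraries were the 3 highest by a small margin over Basal 3, and no comparison passed. The Dlg3 differences between pairs of groups ran from -0.04 ± 0.12 in Early against Basal (adjusted p = 0.941) to 0.24 ± 0.12 in Reactivated against Early (adjusted p = 0.156).

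As a share of the summed normalized counts of the 4 Dlg genes, Dlg2 took 43.0% ± 0.755 in Basal and 45.9% ± 3.78 in Early, then 35.4% ± 1.48 in Late and 28.9% ± 1.26 in Reactivated (each SD over n = 3). Dlg4 took 26.5% ± 2.10, 28.2% ± 3.25, 33.2% ± 1.11 and 38.9% ± 0.330 in the same order. The share ranges of Dlg2 in Late (34.0 to 36.9%) and Reactivated (27.5 to 30.01%) did not overlap with each other or with Basal and Early. The family sum was 5688 ± 174 in Basal and 5871 ± 258 in Early, then 4867 ± 144 in Late and 5307 ± 361 in Reactivated. A share of this kind does not depend on the scaling of libraries, but it mixes genes of different length and GC content. No GC correction was applied to the shares.

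**Figure D3:**
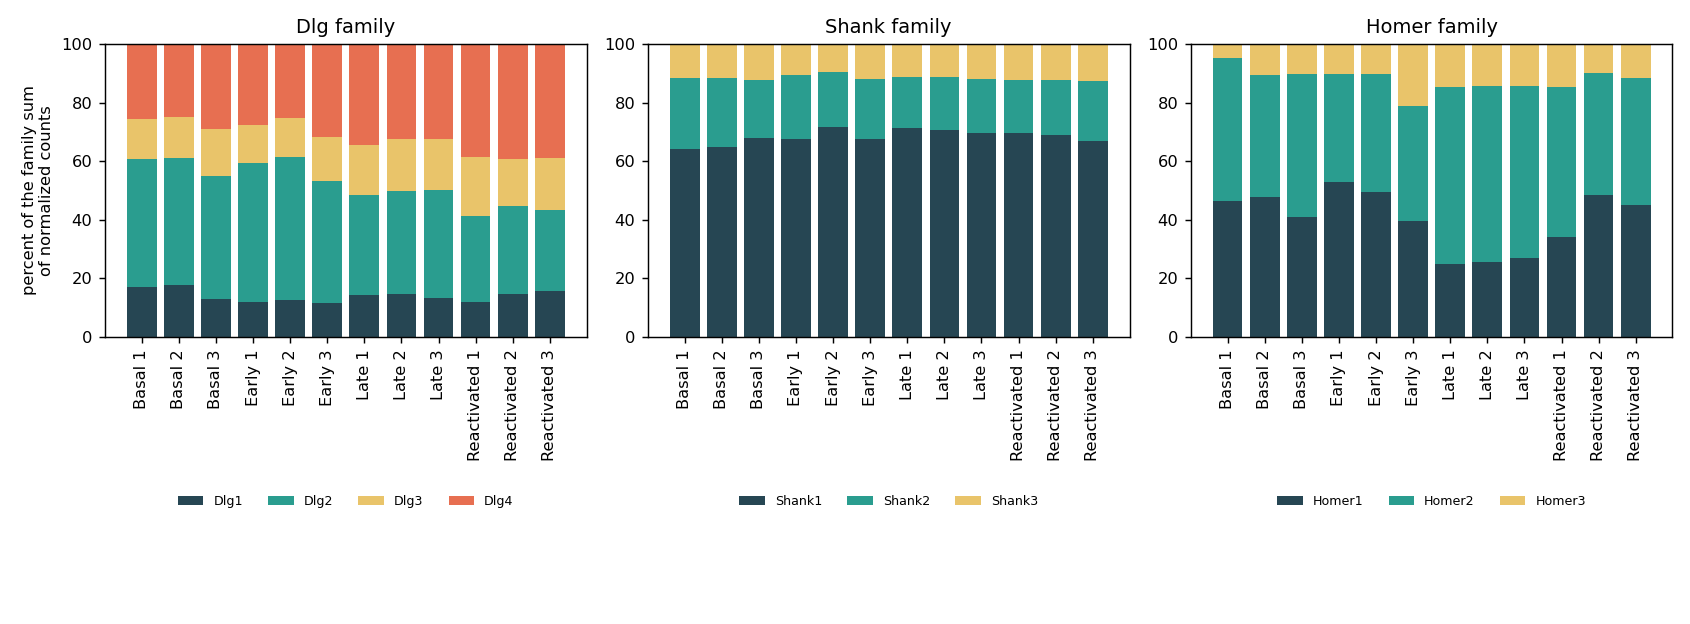
Share of each gene in the summed normalized counts of its family (percent, stacked bars), 1 bar per library and 1 panel per family. The Dlg4 share is highest and the Dlg2 share lowest in Reactivated, Shank1 holds 64.2 to 71.7% of the Shank sum in every library, and Homer1 drops to 24.9 to 27.0% of the Homer sum in the 3 Late libraries.

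The 3 Shank genes rose in Late and in Reactivated against Basal with TMM, upper quartile and median-of-ratios scaling. With scaling by library total alone the values were positive but not all passed, since Shank2 was 0.07 in Late (adjusted p = 0.623) and 0.27 in Reactivated (adjusted p = 0.0958) and Shank3 was 0.34 in Late (adjusted p = 0.0611). With values as deposited the rise of Shank1 in Late (1.03, adjusted p = 0.0363) was the one of these 6 that passed. In Late against Early library totals gave 0.035 for Shank1 (adjusted p = 0.832), -0.19 for Shank2 (adjusted p = 0.206) and 0.12 for Shank3 (adjusted p = 0.514). Shank1, the scaffold of mature spines and the most abundant member here, had 5428, 5203 and 8342 in the Basal libraries, 7746, 9224 and 10574 in the Early, 17245, 16871 and 13612 in the Late and 13616, 13205 and 11899 in the Reactivated libraries. Late and Reactivated libraries were above all Basal and Early libraries, Late and Reactivated met at their edges, and Basal 3 was above Early 1. Shank1 rose 2.51-fold in Late against Basal (log2 1.33 ± 0.19, adjusted p = 5.07e-05) and 2.04-fold in Reactivated against Basal (1.03 ± 0.18, adjusted p = 0.000855). It rose 1.73-fold in Late against Early (0.79 ± 0.18, adjusted p = 0.00334). In Early against Basal the difference was 0.54 ± 0.18 (adjusted p = 0.112), which passed without Basal 3 (0.79, adjusted p = 0.00744). In Reactivated against Early it was 0.49 ± 0.18 (adjusted p = 0.0611) and passed without Basal 3 (0.49, adjusted p = 0.019) or Early 3 (0.59, adjusted p = 0.0347).

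Shank2, which is present at synapses from early development, had 2064, 1915 and 2425 in the Basal libraries, 2512, 2428 and 3253 in the Early, 4213, 4280.1 and 3625 in the Late and 3513, 3605 and 3617 in the Reactivated libraries. The 4 groups did not overlap, although the gaps between Basal and Early and between Reactivated and Late were a few counts wide. Shank2 rose by 0.92 ± 0.15 in Late against Basal (adjusted p = 0.000141), 0.74 ± 0.15 in Reactivated against Basal (adjusted p = 0.00143) and 0.56 ± 0.14 in Late against Early (adjusted p = 0.00622). Its Early against Basal difference was 0.36 ± 0.14 (adjusted p = 0.206). Reactivated against Early was 0.39 ± 0.14 (adjusted p = 0.0591) and passed without Basal 3 (0.39, adjusted p = 0.0416) or Early 3 (0.52, adjusted p = 0.0118).

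Shank3, a scaffold whose loss is a known cause of autism with intellectual disability, had 969, 925 and 1523 in the Basal libraries, 1196, 1217 and 1850.0 in the Early, 2704, 2715 and 2312 in the Late and 2434, 2331 and 2276 in the Reactivated libraries. Every Late and Reactivated library was above every Basal and Early library. The ranges of Basal and Early overlapped. In same-numbered Basal and Early libraries, a pairing that no label states, Shank1, Shank2 and Shank3 were each higher in Early in 3 of 3 pairs. The 3 genes moved together over the libraries, so these counts are not independent. The share of all genes with this pattern was not computed. With the replicate block the Early against Basal differences were 0.54 (adjusted p = 0.135), 0.35 (adjusted p = 0.23) and 0.32 (adjusted p = 0.454). Shank3 rose 2.26-fold in Late against Basal (log2 1.18 ± 0.20, adjusted p = 0.000284) and 2.06-fold in Reactivated against Basal (1.04 ± 0.20, adjusted p = 0.00143). It rose by 0.86 ± 0.20 in Late against Early (adjusted p = 0.00362). The rise in Reactivated against Early, 0.72 ± 0.20 (adjusted p = 0.0183), did not pass without Early 1 (0.61, adjusted p = 0.0885) or Early 2 (0.62, adjusted p = 0.0891). In Reactivated against Late the differences were -0.30 ± 0.18 for Shank1 (adjusted p = 0.262), -0.17 ± 0.14 for Shank2 (adjusted p = 0.422) and -0.13 ± 0.20 for Shank3 (adjusted p = 0.674).

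Basal 3 and Early 3 had the largest Rn45s share of their groups. They also had the largest Shank1, Shank2, Shank3, Homer2, Homer3, Dlg3 and Dlg4 values of their groups and the lowest Dlg1 values. Late 3, with the smallest Rn45s share of Late (27.9%), had the lowest Shank1, Shank2 and Shank3 values there. Reactivated 1, with the largest share of its group (27.7%), had the highest Shank1 and Shank3 but the lowest Shank2. The part of Rn45s in this was not tested. An alternative chosen after seeing the data left out Basal 3 and Early 3. All 8 calls of Reactivated against Basal and all 6 of Late against Basal were still made. In Reactivated against Early 5 members then passed in place of 2. Of all genes, 2828 then rose and 2518 fell there, against 2121 and 1988 with all libraries. The order of genes within the Shank family was steady. Shank1 took 65.6% ± 2.01 of the Shank sum in Basal and 68.9% ± 2.39 in Early, then 70.6% ± 0.878 in Late and 68.5% ± 1.43 in Reactivated. The Shank sum itself was 9598 ± 2341 in Basal and 13334 ± 2149 in Early, then 22526 ± 2582 in Late and 18832 ± 925 in Reactivated. Across the 12 libraries, which fall into the 4 groups, the Pearson r of log2 CPM was 0.975 between Shank1 and Shank2, 0.969 between Shank1 and Shank3 and 0.980 between Shank2 and Shank3. These describe the same 12 libraries and their common group differences.

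Homer1, whose long forms cross-link Shank and metabotropic receptors, had 702, 538 and 694 in the Basal libraries, 1250.5, 1049 and 967 in the Early, 653, 667 and 620.1 in the Late and 887, 1209.9 and 1128 in the Reactivated libraries. All Early and Reactivated libraries were above all Basal and Late libraries, and within each of these pairs of groups the ranges overlapped. Homer1 rose 1.69-fold in Early against Basal (log2 0.76 ± 0.16, adjusted p = 0.0088) and 1.67-fold in Reactivated against Basal (0.74 ± 0.16, adjusted p = 0.00245). In Late against Basal the difference was 0.00 ± 0.16 (adjusted p = 0.985), and with scaling by library total alone it was -0.84, or 0.03 above the median of all genes. That scaling gave 0.68 in Early against Basal (adjusted p = 0.0533) and 0.26 in Reactivated against Basal (adjusted p = 0.281). Homer1 fell in Late against Early by 0.75 ± 0.16 (adjusted p = 0.00165) and rose 1.66-fold in Reactivated against Late (0.73 ± 0.16, adjusted p = 0.00366), the only member that passed there. Early and Reactivated differed by -0.02 ± 0.16 (adjusted p = 0.948). The Early against Basal call did not pass without Basal 2 (0.64, adjusted p = 0.0594) or Early 1 (0.64, adjusted p = 0.0533).

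Homer2, which also forms the long, multimeric kind of Homer, had 744, 468 and 836 in the Basal libraries, 867, 859 and 966 in the Early, 1590.0, 1576 and 1345 in the Late and 1327, 1042 and 1084 in the Reactivated libraries. The groups did not overlap, with Basal lowest, then Early, Reactivated and Late. Homer2 rose 2.199-fold in Late against Basal (log2 1.14 ± 0.19, adjusted p = 0.000188), 1.68-fold in Reactivated against Basal (0.75 ± 0.19, adjusted p = 0.006) and 1.67-fold in Late against Early (0.74 ± 0.18, adjusted p = 0.00509), where scaling by library total alone gave -0.016, or 0.76 above the median of all genes. The same scaling gave 0.29 in Late against Basal (adjusted p = 0.126) and 0.27 in Reactivated against Basal (adjusted p = 0.201). The differences of 0.39 ± 0.18 in Early against Basal (adjusted p = 0.297), 0.36 ± 0.18 in Reactivated against Early (adjusted p = 0.162) and -0.39 ± 0.18 in Reactivated against Late (adjusted p = 0.151) did not pass.

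Homer3, best known from cerebellar Purkinje cells, had the lowest counts of the 10 members, with 73, 121 and 174 in the Basal libraries, 243, 219 and 520.3 in the Early, 385, 380.5 and 328 in the Late and 383, 249.02 and 292 in the Reactivated libraries. All Basal libraries were below all others, and Early 3 was the highest of the 12. Homer3 rose 2.63-fold in Early against Basal (log2 1.39 ± 0.33, adjusted p = 0.0197), 2.92-fold in Late against Basal (1.55 ± 0.33, adjusted p = 0.00143) and 2.46-fold in Reactivated against Basal (1.30 ± 0.33, adjusted p = 0.00691). The Early call did not pass without Early 3 (0.90, adjusted p = 0.0837), Basal 1 (1.14, adjusted p = 0.0796) or Basal 2 (1.38, adjusted p = 0.082), nor in a fit of Early and Basal libraries alone (1.39, adjusted p = 0.0723). Without both Basal 3 and Early 3, Homer3 rose in Late against Early by 0.66 (adjusted p = 0.024), where all libraries gave 0.15 ± 0.31 (adjusted p = 0.722). Exons of Homer3 overlap those of Ddx49 on the opposite strand over 713 bases, and Shank1 overlaps 1700008O03Rik over 339 bases. Both partners are rows of the table and no source used here gives the strand setting of the counting, so the reads of these pairs may not be separated. Ddx49 averaged 90.9 in Basal and 91.8 in Early, then 136 in Late and 137 in Reactivated, and 1700008O03Rik at most 78.5 in any group.

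Within the Homer sum the balance moved between Homer1 and Homer2. Homer1 took 44.9% ± 3.67 in Basal and 47.2% ± 7.01 in Early, then 25.8% ± 1.14 in Late and 42.5% ± 7.44 in Reactivated, and Homer2 took 46.5% ± 4.33, 38.8% ± 1.88, 59.7% ± 0.959 and 45.4% ± 5.05. Every Late library had a lower Homer1 share than any other library. These shares were not corrected for GC content, which was 36.9% in Homer1, 44.4% in Homer2 and 60.2% in Homer3. With the GC correction described below, the fall of Homer1 in Late against Early did not pass. The Homer sum was 1449.9 ± 295 in Basal and 2314 ± 168 in Early, then 2515 ± 193 in Late and 2534 ± 54.2 in Reactivated, so that Late and Reactivated had sums close to each other with a different makeup.

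Levels can be compared between genes only per length, here normalized counts per kilobase of the longest annotated transcript (introns, which nuclear reads also cover, are not in this length). On this scale Shank1 was highest in all 4 groups, at 644 ± 178 in Basal and 934 ± 144 in Early, then 1619 ± 203 in Late and 1314 ± 91.3 in Reactivated. Dlg2 was next in Basal (313 ± 12.3) and Early (346 ± 40.8), where Early Shank2 (304 ± 50.5) was within the spread of it. In Late the order after Shank1 was Shank2 (449 ± 40.1), Shank3 (350 ± 31.2), Dlg4 (255 ± 9.21) and Dlg2 (220 ± 15.1). In Reactivated it was Shank2 (398 ± 6.32), Dlg4 (327 ± 24.6), Shank3 (319 ± 10.9) and Dlg2 (197 ± 18.9), with Dlg4 and Shank3 within their spread of each other and Dlg2 beside Dlg3 (190 ± 9.37) and Homer1 (188 ± 29.4). Dlg4 (239 ± 21.3) and Shank2 (238 ± 29.2) were likewise within their spread in Basal. The lowest values were Homer3 in Basal (47.0 ± 19.4) and Homer2 in Early (81.7 ± 5.44) and Reactivated (105 ± 14.02). In Late, Dlg1 (112 ± 3.17) and Homer1 (113 ± 4.23) were lowest and within their spread.

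Transcripts of the members differ in GC content, and Late and Reactivated differed from the other groups in a way that followed GC content over all genes. The longest transcripts hold 36.9% GC in Homer1, 43.8% in Dlg1, 44.3% in Dlg2, 44.4% in Homer2, 46.8% in Dlg4, 50.4% in Dlg3, 55.0% in Shank2, 60.2% in Homer3, 61.4% in Shank1 and 62.4% in Shank3. Of all genes tested, the decile with the lowest GC content had a median log2 fold change of -0.57 in Late against Basal and the decile with the highest GC content 0.50. In Reactivated against Basal these medians were -0.42 and 0.49, whereas in Early against Basal they were 0.01 and 0.02. Shank1 was 0.83 and Shank3 0.67 above the median of their decile in Late against Basal, Homer2 was 1.42 above its decile, and Dlg2 was -0.22 from its decile. Homer1, in the lowest decile, was 0.57 above its decile in that comparison and 1.16 above it in Reactivated against Basal.

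With a smooth correction for GC content in each library, an alternative chosen after seeing the data, several calls changed. Homer1 then rose in Late against Basal (0.61, adjusted p = 0.00751) and in Reactivated against Early (0.50, adjusted p = 0.0422), which did not pass with the replicate block added (0.50, adjusted p = 0.0562), and its Late against Early difference was -0.12 (adjusted p = 0.602). The rises of Homer1 in Early against Basal, Reactivated against Basal and Reactivated against Late still passed. The fall of Dlg2 in Late against Basal did not pass (-0.23, adjusted p = 0.122). In Late against Early, Shank1 (0.23, adjusted p = 0.166) and Shank3 (0.27, adjusted p = 0.112) did not pass, and neither did Shank3 in Reactivated against Early (0.20, adjusted p = 0.274). Shank1 in Early against Basal (0.51, adjusted p = 0.0245) and Dlg4 in Reactivated against Early (0.46, adjusted p = 0.0239) newly passed. The rises of Shank1, Shank2, Shank3, Homer2 and Homer3 in Late and in Reactivated against Basal all passed after the correction.

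**Figure D4:**
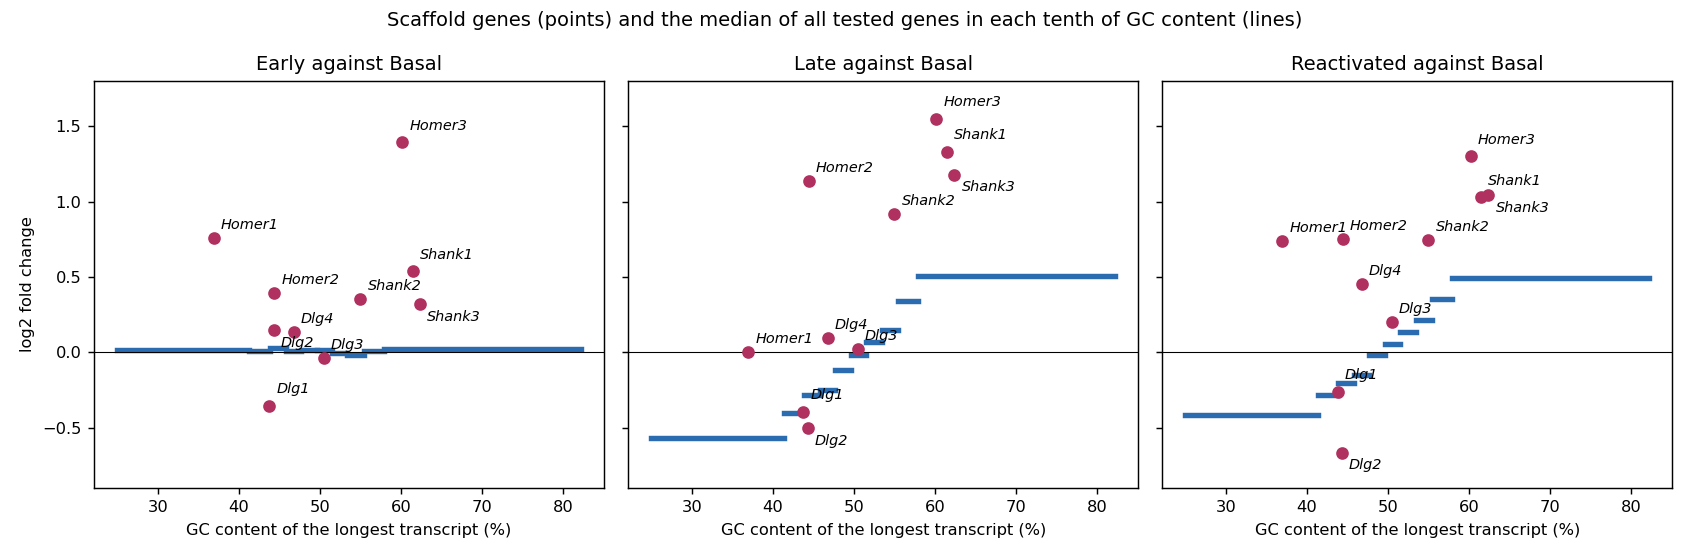
Log2 fold change of each scaffold gene (points) against the GC content of its longest transcript (percent) in the 3 comparisons with Basal, with the median of all genes tested in each decile of GC content (lines, drawn over the range of the decile). The lines rise from -0.57 to 0.50 in Late and from -0.42 to 0.49 in Reactivated and are flat in Early, where Homer1 (0.76) and Homer3 (1.39) stand above them.

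Markers of hippocampal cell types also differed between the groups. The 7 excitatory neuron markers summed to 14777 to 15848 in Basal and 14888 to 19526 in Early, then 22149 to 23512 in Late and 21917 to 27196 in Reactivated, higher in the groups where the Shank genes were higher. Among them Slc17a7, the vesicular glutamate transporter of these neurons, had 1922 ± 303 in Basal and 2992 ± 263 in Early, then 4543 ± 158 in Late and 4923 ± 484 in Reactivated. It rose 2.36-fold in Late (adjusted p = 9.39e-06) and 2.56-fold in Reactivated (adjusted p = 2.87e-05) against Basal. The 8 markers of neuronal nuclei summed to 11226 to 12498, 14582 to 16539, 17629 to 19875 and 20124 to 23827 in the same order. Among these Snap25, a presynaptic fusion protein, had 2278 ± 223 in Basal and 4001 ± 444 in Early, then 2608 ± 100.05 in Late and 5038 ± 512 in Reactivated, with every Early and Reactivated library above every Basal and Late library, as for Homer1. The sum of the 8 did not follow this order, and Rbfox3, also among them, was highest in Late (2267 ± 112). Summed normalized counts of 10 dentate granule cell markers (all 10 tested) ran from 9041 to 13212 in Basal and 2473 to 2914 in Early, then 2004 to 2205 in Late and 1605 to 3568 in Reactivated. The 9 CA1 pyramidal markers summed to 883 to 1286 in Basal and 2305 to 2501 in Early, then 3355 to 4009 in Late and 3121 to 3817 in Reactivated. The 10 CA3 and CA2 markers summed to 1202 to 1545, 2531 to 4084, 3931 to 4723 and 2710 to 3150 in the same order, and 14 interneuron markers to 5991 to 7157, 3456 to 5265, 3481 to 3768 and 4005 to 4202. Sums of 9 oligodendrocyte markers (8 tested) were 1920 to 2459 in Basal and 1661 to 2114 in Early, then 4737 to 9958 in Late and 2880 to 7582 in Reactivated. Sums of 8 microglia markers (6 tested) were 709 to 824, 683 to 824, 5690 to 9760 and 848 to 2098, although Csf1r, which defines microglia, averaged 39.5 in Basal and 14.1 in Late. Sums of 8 astrocyte markers were 2738 to 5162 in Basal and 3155 to 5142 in Early, then 3561 to 4918 in Late and 3883 to 8208 in Reactivated. In the same order, 6 oligodendrocyte precursor markers summed to 105 to 158, 102 to 146, 71.9 to 82.9 and 244 to 591. The 8 blood vessel markers (7 tested) summed to 119 to 689, 91.9 to 126, 80.5 to 111 and 98.6 to 354. The part of cell makeup in the scaffold differences was not tested.

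Other genes of the postsynaptic density were taken from a list of 38, all of which were tested. In Early against Basal 2 of 38 rose (median 0.09), where 3.36% of all genes rose and 2.66% fell. They were Magi3, a guanylate kinase scaffold (0.96 ± 0.18, adjusted p = 0.00396), and Frmpd4, which binds Dlg4 and Homer (0.59 ± 0.13, adjusted p = 0.0151). Frmpd4 did not pass without Basal 2 (0.54, adjusted p = 0.082), Basal 1 (0.59, adjusted p = 0.0511) or Early 1 (0.54, adjusted p = 0.0724), and 6 of the 38 passed without Basal 3. Without that library 669 of all genes rose and 432 fell, against 527 and 417. In Late against Basal 19 rose and 7 fell (median 0.35), where 25.4% of all genes rose and 23.6% fell. The largest rises were Begain, a partner of Dlg4 (1.72 ± 0.27, adjusted p = 0.000149), Dlg5, a more distant guanylate kinase (1.53 ± 0.24, adjusted p = 0.000127), and Dlgap3, which links Dlg to Shank (1.44 ± 0.21, adjusted p = 8.22e-05). The largest falls were Abi1, an actin regulator that binds Shank (-1.25 ± 0.24, adjusted p = 0.000659), and Lin7c, a PDZ protein of the Cask complex (-1.12 ± 0.19, adjusted p = 0.000276). Gphn, the scaffold of inhibitory synapses, fell by 0.57 ± 0.18 (adjusted p = 0.0151), a call that did not pass without Basal 1 (-0.50, adjusted p = 0.0595), Late 1 (-0.53, adjusted p = 0.0582) or Late 2 (-0.56, adjusted p = 0.0504). The count of 26 was 17 without Basal 2 and 16 without Late 2. Of all genes, 3294 rose and 2924 fell without Basal 2 and 3354 and 2800 without Late 2, against 3981 and 3705. With scaling by library total the split of the 38 was 3 risen and 21 fallen (1401 and 9062 of the 15668 genes tested). With upper quartile scaling it was 12 and 11 (3016 and 5114 of all).

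In Reactivated against Basal 14 of the 38 rose and 3 fell (median 0.18), where 20.6% of all genes rose and 18.8% fell. Dynll2, a dynein light chain that binds Dlgap proteins, rose by 1.54 ± 0.18 (adjusted p = 5.53e-05), and Begain by 1.55 ± 0.27 (adjusted p = 0.000741). Cask, a scaffold on both sides of the synapse, rose by 1.74 ± 0.43 (adjusted p = 0.00624), but 1 library set the size. Reactivated 2 had 5918 normalized counts of Cask where Reactivated 1 and 3 had 1308 and 1536, and without it the rise was 0.70 (adjusted p = 0.0261). Gphn (-0.51 ± 0.18, adjusted p = 0.032) and Lrrc7, a density protein that binds CaM kinase (-0.34 ± 0.12, adjusted p = 0.0366), fell. Gphn did not pass without Basal 1 (-0.46, adjusted p = 0.0961), Basal 2 (-0.50, adjusted p = 0.0832) or Reactivated 1 (-0.32, adjusted p = 0.0982), and Lrrc7 was lost without Basal 1, Basal 2, Late 1, Late 2 or any Reactivated library, reaching -0.28 (adjusted p = 0.139) without Basal 2. The count of 17 was 9 without Basal 1 or Basal 2 and 11 without Reactivated 2. Of all genes, 2280 rose and 2126 fell without Basal 1, 2178 and 2021 without Basal 2, and 2769 and 2509 without Reactivated 2. With all libraries 3228 rose and 2946 fell. Library totals gave 6 of the 38 risen and 15 fallen here (1240 and 5833 of the 15668 genes tested), and upper quartile scaling 12 and 6 (2666 and 3567 of all).

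In Late against Early 14 of the 38 rose and 7 fell (median 0.27), where 22% of all genes rose and 20.4% fell. Grip2, which binds AMPA receptors, rose by 1.29 ± 0.22 (adjusted p = 0.000358), Cit, the citron kinase, by 1.11 ± 0.28 (adjusted p = 0.00556) and Dlgap3 by 1.098 ± 0.21 (adjusted p = 0.000923). Abi1 fell by 1.20 ± 0.24 (adjusted p = 0.00117), Frmpd4 by 0.91 ± 0.13 (adjusted p = 0.000112) and Lin7c by 0.85 ± 0.19 (adjusted p = 0.00292). The count of 21 was 13 without Early 2 or Late 2. Of all genes, 2581 rose and 2238 fell without Early 2 and 2680 and 2150 without Late 2, against 3442 and 3189. Library totals gave 1 of the 38 risen and 22 fallen (1208 and 8601 of the 15668 genes tested), and upper quartile scaling 7 and 8 (2482 and 4637 of all).

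In Reactivated against Early 7 of the 38 rose and 4 fell (median 0.19), where 13.5% of all genes rose and 12.7% fell. Dynll2 rose by 1.11 ± 0.18 (adjusted p = 0.00138). Cit (1.01 ± 0.28, adjusted p = 0.0173), Cask (1.43 ± 0.43, adjusted p = 0.0253), Cnksr2 (-0.56 ± 0.16, adjusted p = 0.0198), Gphn (-0.54 ± 0.18, adjusted p = 0.0368) and Anks1b, a partner of Dlg4 (-0.42 ± 0.13, adjusted p = 0.0335), passed with all libraries but not without Early 1, where they were 0.83, 1.30, -0.51, -0.52 and -0.37. Each was also lost without Early 2, where they were 1.08, 1.37, -0.56, -0.47 and -0.35, and Cask without Reactivated 2 was 0.39 (adjusted p = 0.215). Without Reactivated 1, Cnksr2 (-0.50), Gphn (-0.34) and Anks1b (-0.39) did not pass, nor did Anks1b without Reactivated 2 (-0.40) or Gphn without Late 2 (-0.54). The count of 11 was 2 without Early 1 or Early 2, 6 without Reactivated 1 and 17 without Early 3. Of all genes, 860 rose and 933 fell without Early 1 and 783 and 915 without Early 2. They were 1623 and 1659 without Reactivated 1 and 2395 and 2203 without Early 3, against 2121 and 1988. Library totals gave 4 of the 38 risen and 8 fallen (719 and 4284 of the 15668 genes tested).

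In Reactivated against Late 4 of the 38 rose and 2 fell (median -0.07), where 10.3% of all genes rose and 12.3% fell. Abi1 rose by 0.97 ± 0.24 (adjusted p = 0.00913) and Lin7c by 0.73 ± 0.19 (adjusted p = 0.0143). Cask (1.61 ± 0.43, adjusted p = 0.0144) was 0.57 (adjusted p = 0.0847) without Reactivated 2. Grip1, an AMPA receptor binding protein, fell by 0.66 ± 0.20 (adjusted p = 0.0273) and Abi2 by 0.58 ± 0.18 (adjusted p = 0.0319). Without Late 2 the values of Lin7c (0.66), Grip1 (-0.59) and Abi2 (-0.55) did not pass, and the same held without Late 1 (0.67, -0.64 and -0.55). Cask without Late 3 was 1.45 (adjusted p = 0.06). Grip1 was lost without Reactivated 1 (-0.59) or Reactivated 3 (-0.67), and Abi2 without Reactivated 2 (-0.55) or Reactivated 3 (-0.51). The count of 6 was 3 without Late 1 or Late 2 and 10 without Basal 3. Of all genes, 815 rose and 1342 fell without Late 1, 829 and 1379 without Late 2, and 1753 and 2074 without Basal 3. With all libraries 1615 rose and 1926 fell. Library totals gave 12 of the 38 risen and 0 fallen in edgeR (3881 and 1091 of the 15668 genes tested), and upper quartile scaling 6 and 1 (2260 and 1590 of all).

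For the member of each family with the largest F for any difference, the genes with the most similar levels were found by Pearson r of log2 CPM over the 12 libraries, among 10306 genes. The closest to Dlg2 were Ap5m1 (r = 0.972), Pkib (0.958), Neurl3 (0.957), Aplf (0.956) and Tro (0.955). The closest to Shank1 were Epb4.1l3 (0.990), Col16a1 (0.988), Ankrd35 (0.986), Clcn2 (0.985) and Wnk2 (0.985). The closest to Homer1 were Tppp (0.968), Napb (0.963), Rab6a (0.961), Hspa4l (0.952) and Vdac1 (0.948). Among the members, Homer1 had its highest r, 0.666, with Dlg4, and had 0.066 with Homer2 and 0.115 with Shank1, whereas Homer2 had 0.944 with Shank1, and Dlg2 had -0.854 with Shank3. All these values share the same 12 libraries and their 4 groups, and they describe likeness over these libraries.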

How the data were processed

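Nuclear RNA was analysed in 12 libraries, grouped by their titles. Per the submitters' processing notes, Bowtie2 2.0, Cufflinks 2.2, DESeq2 and build mm9 were used, with no role stated; which tool counted reads, with what annotation and strand rule, is not given in the sources used here. Libraries were made with a stranded pico-input kit and 15 PCR cycles, per the labels, although the design text names SmartSeq2. The authors deposited 1 count per gene symbol and library (24015 rows, of which 2989 were 0 throughout). The table is named normalized, but its whole numbers had unequal totals and median-of-ratios size factors from 0.734 upward, so they were treated as raw counts. PCR copies cannot be told from molecules.

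The 15668 genes that reached a count of 10 in 3 or more libraries entered edgeR 4.0.16 (R 4.3.3): TMM scaling, 4 group means over all 12 libraries, quasi-likelihood tests of the 6 pairs and of any difference, two-sided, adjusted by Benjamini-Hochberg over all genes. Log2 CPM used a prior count of 2. The scripts were tested on simulated data. GC content and length are of the longest GENCODE transcript of a symbol on GRCm38 (15461 genes, 98.7%), since no mm9 annotation was used here. No mm9 coordinates are given. The coordinates of the Homer windows are on GRCm38.p6, not on the mm9 build named in the processing notes.

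All members are named; of the other postsynaptic genes, up to 3 per direction and comparison by size of change among those past the threshold with a mean normalized count of at least 50. Members, lists and alternatives were chosen with earlier results of these data known, and 4 of 25 alternatives after seeing the table. Replicate numbers come from the titles. Deviations from group means correlated at 0.331, 0.143 and 0.484 in the Basal and Early libraries numbered 1, 2 and 3. Basal 2 correlated more with Early 1 (0.168) than with Early 2, and Basal 1 had 0.223 with Early 2. A pairing by number is thus uncertain for numbers 1 and 2. The replicate block was used as an alternative and not in the main fit. The other pairs of groups had a correlation under 0.1 in some pair. DESeq2 1.42.0 served as an alternative test.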

Additional observations from a re-analysis of the deposited data

How the results depend on the processing

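Depth limits Homer3 most, since its lowest count in a library was 56. Of 1500 values of single scaffold genes under 25 alternatives, 48 no longer passed and 45 newly passed with the same sign. A further 8 turned in sign while passing in the main fit, the alternative or both. The other 1399 kept their side of the threshold, and 59 of these passed in neither setting and changed sign. Among the turned values, scaling by library total alone gave Dlg3 -0.81 and Dlg4 -0.74 and Homer1 -0.84 in Late against Basal, Dlg4 -0.027 in Reactivated against Basal, and Dlg3 -0.69, Shank2 -0.19 and Homer2 -0.016 in Late against Early. With that scaling the median of all genes moved too, to -0.868 in Late against Basal. Member values relative to this median were at most 0.065 from those with TMM. They therefore repeat the TMM values and cannot tell which scaling is right. The GC correction gave Homer1 0.50 in Reactivated against Early, and the cause was not tested.

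Counts of scaffold genes that passed also moved, and the cause was not tested. Calls over all genes, risen and fallen, are given beside them. In Early against Basal (2 with all libraries) 1 passed with library totals, 1 with values as deposited and 1 in a fit of those 2 groups. Of all genes, 527 rose and 417 fell in the main fit, then 341 and 444, 282 and 86, and 371 and 384 in the same order. In Late against Basal (6) values as deposited gave 2. Of all genes, 1780 rose and 2693 fell there, against 3981 and 3705 in the main fit. In Reactivated against Basal (8) library totals gave 5 and values as deposited 1. Of all genes, 1240 rose and 5833 fell with library totals and 1138 and 1126 as deposited, against 3228 and 2946. In Late against Early (6) values as deposited gave 2, and the GC correction 3, also with the replicate block (3). Of all genes, 3442 rose and 3189 fell in the main fit. They were 1087 and 3582 as deposited, 3282 and 2424 with the GC correction, and 3314 and 2333 with the block. In Reactivated against Early (2) DESeq2 gave 5, library totals 1, values as deposited 0 (edgeR), and leaving out Basal 3 and Early 3 gave 5. Of all genes, 2121 rose and 1988 fell in the main fit. DESeq2 gave 2360 and 2245 and library totals 719 and 4284. Values as deposited gave 343 and 1241, and leaving out Basal 3 and Early 3 gave 2828 and 2518. In Reactivated against Late (1) DESeq2, upper quartile scaling, the fit of 2 groups and leaving out Rn45s each gave 2, library totals 3, values as deposited 0 and leaving out Basal 3 and Early 3 gave 3. Of all genes, 1615 rose and 1926 fell in the main fit. DESeq2 gave 1784 and 2098, upper quartile scaling 2260 and 1590, and the fit of 2 groups 1473 and 1705. Leaving out Rn45s gave 1698 and 1843 and library totals 3881 and 1091. Values as deposited gave 877 and 869, and leaving out Basal 3 and Early 3 gave 1893 and 2507. For any difference (8), values as deposited gave 3, and the count of all genes was not taken for that setting.

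Among the 38 other genes, Early against Basal (2) became 5 with DESeq2, 0 with values as deposited, 7 without Basal 3 and Early 3, 6 with the GC correction and 4 with that and the replicate block. Of all genes, 700 rose and 583 fell with DESeq2, 282 and 86 as deposited, and 578 and 372 without Basal 3 and Early 3. The GC correction gave 574 and 487, and 561 and 457 with the replicate block, against 527 and 417 in the main fit. Values as deposited gave 5 in Late against Basal (26), 5 in Reactivated against Basal (17), 6 in Late against Early (21), 1 in Reactivated against Early (11) and 2 in Reactivated against Late (6). The calls over all genes as deposited are those given above. The fit of 2 groups gave 10 in Reactivated against Basal and 7 in Reactivated against Early. Of all genes, it gave 2351 risen and 2065 fallen, and 1416 and 1198, in the same order. In Reactivated against Early, leaving out Basal 3 and Early 3 gave 19, the GC correction 7 and that with the replicate block 6. Of all genes, the GC correction gave 1772 risen and 1421 fallen there, and 1656 and 1351 with the block. In Reactivated against Late, library totals gave 12, and leaving out Basal 3 and Early 3 gave 12.

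Leaving out 1 library at a time gave 0 to 3 scaffold genes in Early against Basal, 1 to 5 in Reactivated against Early and 1 to 2 in Reactivated against Late. The other genes ran from 1 to 6 in Early against Basal, 16 to 27 in Late against Basal, 9 to 23 in Reactivated against Basal, 13 to 26 in Late against Early, 2 to 17 in Reactivated against Early and 3 to 10 in Reactivated against Late. The calls over all genes moved in these fits too. In Early against Basal 255 rose and 234 fell without Basal 2, and 669 and 432 without Basal 3. With the replicate block, 2, 6, 8, 6, 2 and 1 scaffold genes passed in the 6 comparisons, the same genes as without it, and no call of a member or count changed by more than 1.5 times. Across all groups 4 of 18 same-numbered pairs had a correlation over 0.1, and 7 of 12 libraries correlated best with their own number.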
